A study of Mus musculus with 30 samples.

Results

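The comparison described here is between tumors of MCA-970 and tumors of MCA-972, 2 fibrosarcoma cell lines that were both sensitive to NK1.1+ cells. Members were chosen by title: 6 tumors of MCA-970 and 4 tumors of MCA-972, 10 of the 30 tumors in the series, which holds 5 lines. The study derived the lines from sarcomas that the carcinogen 3-methylcholanthrene (MCA) had induced, and it grew them again in mice to ask which tumors natural killer (NK) cells and type 1 innate lymphoid cells (ILC1) restrain. Bulk RNA was sequenced after cells carrying CD45, the surface protein of hematopoietic cells, had been removed with magnetic beads. The labels give all 10 tumors the background C57BL/6, growth in C57BL/6 animals, the strain Ncr1Cre R26DTA and sensitivity to NK cells. In that strain the Ncr1 promoter drives Cre in NKp46+ cells, and Cre switches on diphtheria toxin A there, so that NK cells and ILC1 are lost. The labels do not state whether the strain is that of the animal in which the line arose or of the host in which it grew, and the series lists both wild-type and NK cell deficient hosts. Titles carry the letter W or a, which no source used here explains: MCA-970 had 3 tumors with W (W-1D, W-2D and W-R) and 3 with a (a-1D, a-2D and a-2G), and MCA-972 had 3 with a (a-1, a-1G and a-R) and 1 with no letter (2G). No age, sex or treatment is given, and each line is a single primary line, so tumors of a line are repeats of 1 line and not of a class of tumor.

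NK cells weigh activating ligands on a target cell against major histocompatibility complex (MHC) class I molecules, which most inhibitory receptors read. MCA sarcomas arise from connective tissue cells, which keep a record of their place in the body in the Hox genes, transcription factors that are laid out in clusters along the chromosome. Each MCA tumor is an independent event, so lines of like behavior can differ in origin, in sex and in genome.

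The deposited values were read counts per gene, and the totals were 27745104 to 43696938 in MCA-970 and 37623787 to 40088940 in MCA-972. Levels are given as CPM, counts per 1000000 counts after TMM scaling of the library sizes. CPM is not divided by gene length, so levels of different genes are not compared. For MCA-970 the lowest, the median and the highest of the 6 tumors are given, and for MCA-972 the values of a-1, a-1G, 2G and a-R in that order. Log2 fold changes are MCA-970 minus MCA-972, with the SE of the fit, and come from edgeR's quasi-likelihood test over all 30 tumors. Genes are called where p, adjusted by Benjamini-Hochberg, fell under 0.05 and the lines differed by at least 1 on the log2 scale. Nothing in the labels says that tumors of a line came from separate animals, so p-values measure the spread between these samples only, which may be technical. The library numbers form 3 runs. MCA-972 was in the first with 6 tumors of MCA-969, and MCA-970 was in the second with 2 tumors of MCA-969 and 2 of MCA-948. No run held both lines, so line and run cannot be told apart within the pair. The run could be entered as a covariate only through MCA-969 and MCA-948, and that fit is given below beside the genes whose call it ended and the lists whose count it moved by more than 1.5 times. The step from the first run to the second rests on MCA-969, whose 2 tumors of the second run carry the label of a sensitive tumor while the other 6 do not, so run and that label cannot be told apart there.

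Of 16862 genes tested, 2962 (17.6%) were called, 1443 of them (8.56%) higher in MCA-970 and 1519 (9.01%) higher in MCA-972. The other 9 pairs of lines had 3473 to 4959 genes called, which is 20.6% to 29.4%. The tumors did not overlap between the lines for 7019 genes (41.6%), and 2428 of the 2962 called genes were among these. With the run as a covariate 2001 genes were called, 1027 higher in MCA-970 and 974 higher in MCA-972, and 1564 of them were called in the same direction without it. Between the runs within MCA-969, 173 genes (1.03%) were called, and 81 of these were among the 2962. Without the MCA-969 tumor W-1D, the number called between these runs rose far above 173. Without the other MCA-969 tumor of the second run, it was a little below 173. Each of these fits leaves a single tumor in the second run, so the step between the runs depends on which tumor is left. The share of counts from mitochondrial genes was 0.502% ± 0.048 (SD, n = 6) in MCA-970 and 1.34% ± 0.206 (SD, n = 4) in MCA-972 (exact two-sided permutation test, p = 0.0048, the smallest that 210 relabellings can give). Of 11 mitochondrial genes tested, 10 were called higher in MCA-972.

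The labelled tissue was checked first. All 16 fibroblast genes looked for, from the collagens Col1a1 and Col1a2 to Pdgfra, Pdgfrb and Vim, were measured, and their summed level was 47889 to 66862 CPM in MCA-970 and 55675 to 77033 CPM in MCA-972. Of these, 3 were called (18.8%, near the 17.6% of all genes), 1 higher in MCA-970 and 2 higher in MCA-972, and with the run as a covariate 1 higher in MCA-972. Lum, which codes for the collagen-binding proteoglycan lumican, was at 76.4 to 135 CPM (median 107) in MCA-970 and at 904, 713, 948 and 799 CPM in MCA-972, with no overlap (log2 fold change -2.98 ± 0.46, edgeR adjusted p = 4.53e-06). Thy1, a surface glycoprotein of fibroblasts, was at 632 to 938 CPM in MCA-970 and 295 to 342 CPM in MCA-972. Fap, a serine protease of activated fibroblasts, was at 21.9 to 25.7 CPM in MCA-970 and 43.8 to 54.2 CPM in MCA-972. With the run as a covariate Lum and Thy1 lost their calls, at log2 fold changes of -1.47 (edgeR adjusted p = 0.0935) and 1.07 (edgeR adjusted p = 0.0641), and Fap lost its call without MCA-972 a-1 or a-R, at log2 fold changes of -0.997 and -0.99.

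Sex-linked genes separated the lines completely. Xist, the long noncoding RNA that silences an X chromosome in female cells, lay between 0 and 0.147 CPM in the 6 MCA-970 tumors and at 464, 531, 513 and 416 CPM in MCA-972 (log2 fold change -13.28 ± 0.36, edgeR adjusted p = 2.28e-21). Tsix overlaps Xist on the other strand, so the pair cannot be told apart. Uty and Kdm5d are demethylase genes of the Y chromosome. Uty was at 15.8 to 20.4 CPM (median 18.7) in MCA-970 and at 0.136, 0.416, 0.652 and 0.167 CPM in MCA-972 (log2 fold change 5.74 ± 0.31, edgeR adjusted p = 1.31e-14). Kdm5d was at 19.5 to 21.8 CPM (median 20.2) in MCA-970 and at 0.136, 0.587, 0.365 and 0.529 CPM in MCA-972 (log2 fold change 5.64 ± 0.30, edgeR adjusted p = 8.38e-15). Eif2s3y and Ddx3y, which code for a translation factor subunit and an RNA helicase, followed the same order, at 22.04 to 31.7 CPM in MCA-970 and 0.655 to 1.06 CPM in MCA-972 and at 45.4 to 54.5 CPM in MCA-970 and 0.846 to 2.16 CPM in MCA-972. All 4 Y-linked genes tested and Xist separated the lines without overlap. The Y-linked genes were above 0 in every MCA-972 tumor, at 0.136 to 2.16 CPM.

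Neighboring genes on chromosome 4 formed the longest run of genes that moved together between the lines. From Eqtn to Alg6, at chr4:94907267-99763460 (GRCm38, 4.86 Mb), 21 genes reached a mean of 1 CPM in either line. Of these, 20 were called higher in MCA-972, where 9.01% of all genes tested were. The ends were set by the calls, which fixes part of that count. In the 20 called genes the tumors did not overlap, as in 41.6% of all genes tested. MCA-972 had the highest mean of all 5 lines in each of them. The median log2 fold change inside the segment was -3.17, against 0.01 over all genes tested. The segment was found after the values were seen, as a stretch in which the running median over 15 neighboring genes passed 0.8 on the log2 scale, so it is given as a description. That stretch ran from Tek to Efcab7, with 20 of 24 genes called and a median of -3.05, and the ends given here are its outermost called genes.

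Jun, the AP-1 transcription factor gene at chr4:95049034-95052222, was at 1278 to 1905 CPM (median 1684) in MCA-970 and at 8322, 7536, 7724 and 13704 CPM in MCA-972. Every MCA-972 tumor was above every MCA-970 tumor, and a-R was the highest of all (log2 fold change -2.52 ± 0.16, edgeR adjusted p = 3.02e-13). Junos, an antisense transcript, overlaps Jun, and since the strand setting of the counting is not stated, reads of the pair cannot be told apart. Nfia, which codes for a transcription factor of the nuclear factor I family, was at 11.7 to 21.5 CPM (median 13.8) in MCA-970 and at 267, 179.7, 341 and 299.5 CPM in MCA-972 (log2 fold change -4.21 ± 0.39, edgeR adjusted p = 8.91e-10). Usp1, a deubiquitinase gene of DNA repair, was at 72.9 to 96.9 CPM (median 81.04) in MCA-970 and at 835, 554, 486 and 828 CPM in MCA-972 (log2 fold change -3.01 ± 0.15, edgeR adjusted p = 2.21e-15). The order of the tumors was not that of Jun, since 2G had the highest level of Nfia and the lowest of Usp1 among the MCA-972 tumors.

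Further along the segment, Fggy, a carbohydrate kinase gene, had the largest separation among genes of 10 CPM or more there, at 2.29 to 3.73 CPM (median 2.83) against 107, 77.3, 84.9 and 98.8 CPM (log2 fold change -4.96 ± 0.14, edgeR adjusted p = 3.20e-21). The histone H2A deubiquitinase gene Mysm1 was at 23.8 to 28.6 CPM in MCA-970 and 209 to 344 CPM in MCA-972. The autophagy protease gene Atg4c was at 8.52 to 12.2 CPM in MCA-970 and 48.9 to 106 CPM in MCA-972. Tm2d1 had the smallest log2 fold change among the called genes of the segment, at 19.8 to 22.5 CPM in MCA-970 and 64.4 to 95.2 CPM in MCA-972 (log2 fold change -1.94 ± 0.11). For the 14 genes with a mean of at least 1 CPM in MCA-970, the ratio of the MCA-972 mean to the MCA-970 mean had a median of 8.26 and ranged from 0.749 to 31.1.

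Since the ends were set by the calls, the genes next to them are uncalled by that choice. The 5 expressed genes before it had a median log2 fold change of -0.30 and the 5 after it one of -0.23. Tek, the angiopoietin receptor gene just before the segment, was at 1.28 to 9.098 CPM in MCA-970 and 5.99 to 10.2 CPM in MCA-972 (log2 fold change -0.53 ± 0.57, edgeR adjusted p = 0.463). Itgb3bp, a centromere protein gene just after it, was at 3.97 to 6.07 CPM in MCA-970 and 6.68 to 8.27 CPM in MCA-972 (log2 fold change -0.53 ± 0.18). The exception inside was the predicted gene Gm12696, at 14.4 to 23.7 CPM in MCA-970 and 11.1 to 15.9 CPM in MCA-972 (log2 fold change 0.42 ± 0.19, edgeR adjusted p = 0.0724). With the run as a covariate 17 of the 21 genes were called higher in MCA-972, and 1 of the 21 was called between the runs within MCA-969. The latter was Nfia, lower in the second run (log2 fold change -1.47, edgeR adjusted p = 0.0358). With the run as a covariate Nfia kept its call, at a log2 fold change of -2.74. Copy number was not measured in this series.

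**Figure D1:**
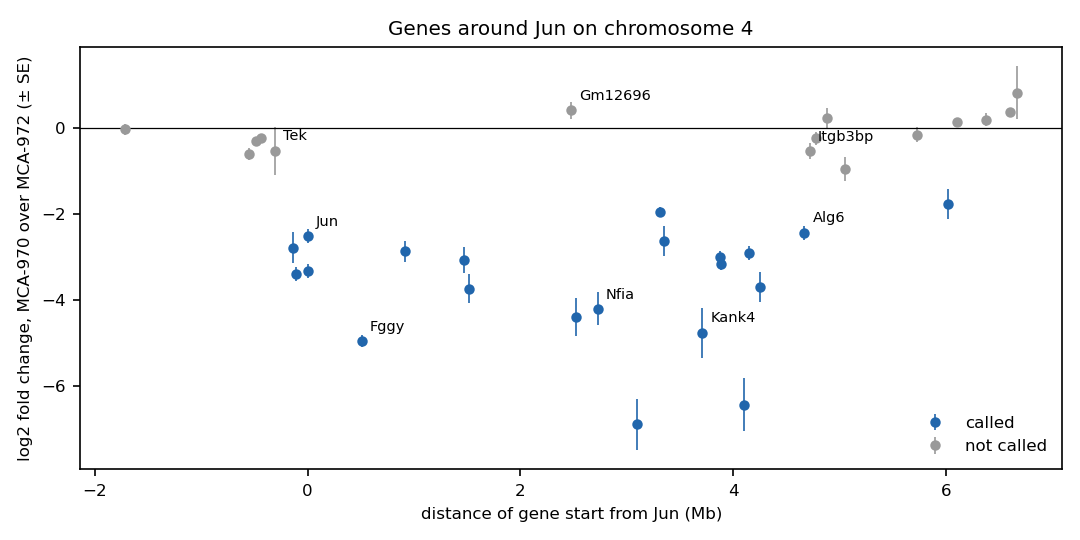
Log2 fold change of MCA-970 over MCA-972 (vertical axis, bars are the SE of the fit) against the distance of each gene's start from that of Jun in Mb (horizontal axis), for genes on chromosome 4 with a mean of at least 1 CPM in either line; blue points were called. The blue points from Eqtn to Alg6 lie between -6.902 and -1.94, while the 5 genes on each side have medians of -0.30 and -0.23.

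Other runs of neighbors were shorter, with 18 genes or fewer. They were picked because their running median passed 0.8, so the calls inside follow in part from that choice. Over all genes tested 17.6% were called. On chromosome 6, 13 of 18 genes between Krba1 and Gpnmb were called, with a median log2 fold change of 1.78. The run at the Hoxb cluster on chromosome 11 came next, with a median of 3.03 over 13 genes. On chromosome 3, 5 of 11 genes between Bcas2 and Magi3 were called, with a median of 0.95. On chromosome 5, 6 of 11 genes between Gm15459 and Crot were called, with a median of -1.04. The run at the Hoxa cluster on chromosome 6 had a median of 4.65 over 9 genes. On chromosome 10, 7 of 8 genes between Moxd1 and Akap7 were called, with a median of -1.52. By whole chromosome the median log2 fold changes lay between -0.32 on chromosome 10 and 0.36 on chromosome 3. The X chromosome had a median of -0.29 over 583 genes tested, with 19 called higher in MCA-970 and 82 higher in MCA-972. The share called there, 17.3%, was near that of all genes, and the direction was uneven.

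Hox genes were mostly higher in MCA-970. Of 39 members 30 passed the filter on low counts, and 18 were called higher in MCA-970 and 2 higher in MCA-972, where 17.6% of all genes tested were called. Their median log2 fold change was 2.84, and it was the same with Hoxa11, which had no count in MCA-972, set at its lower bound. The 18 included 7 members of the Hoxa cluster, 8 of Hoxb, 2 of Hoxc and 1 of Hoxd. A member of such a list passes the filter through the line in which it is high, so the counts describe the measured genes and not the family.

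Hoxb9 was at 52.7 to 61.2 CPM (median 58.2) in MCA-970 and at 0.0819, 0.2201, 0.235 and 0.111 CPM in MCA-972 (log2 fold change 8.42 ± 0.67, edgeR adjusted p = 6.82e-11). Hoxc10 was at 59.7 to 69.3 CPM (median 64.2) in MCA-970 and at 0.0819, 0.905, 0.391 and 0.473 CPM in MCA-972 (log2 fold change 7.08 ± 0.61, edgeR adjusted p = 2.82e-10). Hoxa10 was at 23.5 to 32.4 CPM (median 30.02) in MCA-970 and at 0, 0.0489, 0.0521 and 0.0557 CPM in MCA-972, where it had 0 to 2 counts per tumor (log2 fold change 9.39 ± 0.37, edgeR adjusted p = 9.21e-18). These are Hox genes of the later groups of the clusters, which are used toward the rear of the trunk and in the limbs, and in each the MCA-970 tumors were all above all MCA-972 tumors. Hoxa9 was at 13.9 to 19.8 CPM in MCA-970 and 0 to 0.1303 CPM in MCA-972, Hoxb6 at 20.1 to 25.5 CPM in MCA-970 and 0.0819 to 0.261 CPM in MCA-972, and Hoxb7 at 11.2 to 13.8 CPM in MCA-970 and 0.0546 to 0.306 CPM in MCA-972. Hoxa11 was at 0.987 to 1.86 CPM in MCA-970 and had no count in any MCA-972 tumor, which makes it at least 18.8-fold higher against a floor of 3 counts per library (0.0792 CPM, for counting error only).

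The Hoxc cluster was divided. Hoxc8 was at 11.8 to 16.8 CPM (median 15.4) in MCA-970 and at 49.4, 50.3, 55.2 and 49.3 CPM in MCA-972 (log2 fold change -1.78 ± 0.21, edgeR adjusted p = 6.19e-08). Hoxc4 was at 1.26 to 2.65 CPM in MCA-970 and 4.23 to 5.31 CPM in MCA-972 (log2 fold change -1.25 ± 0.23, edgeR adjusted p = 4.62e-05). Both lay higher in all 4 MCA-972 tumors than in any MCA-970 tumor, while Hoxc10, from the same cluster, had the opposite order. When the run was a covariate, 17 Hox genes were called higher in MCA-970 and 2 higher in MCA-972.

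**Figure D2:**
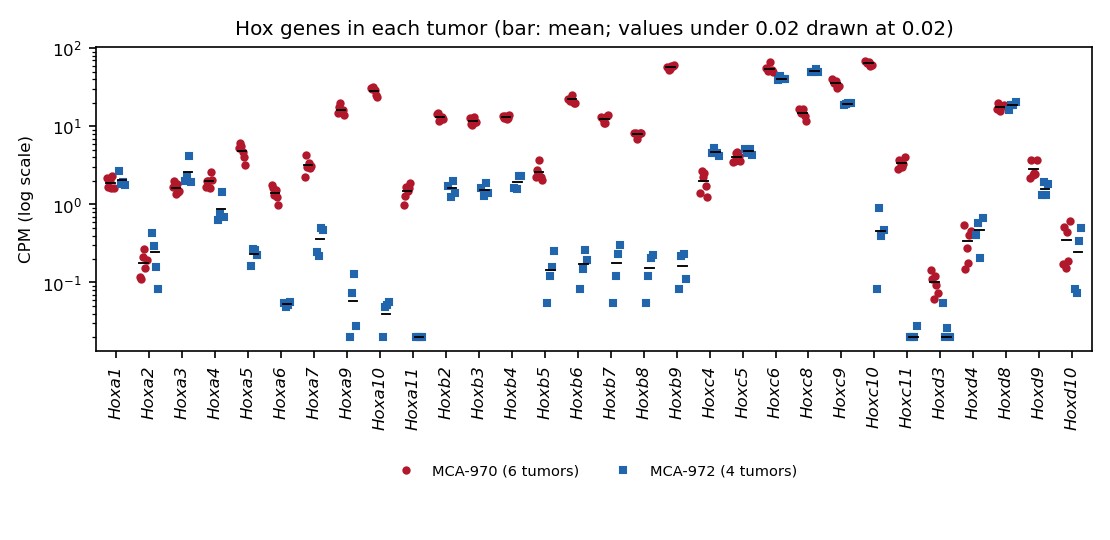
CPM of the 30 measured Hox genes in each tumor (vertical axis, log scale), in cluster order, with red circles for the 6 MCA-970 tumors, blue squares for the 4 MCA-972 tumors, a black bar for the mean and values under 0.02 CPM drawn at 0.02. The red circles lie above the blue squares from Hoxa5 to Hoxa11, through the Hoxb cluster and at Hoxc10 and Hoxc11, and below them at Hoxc4 and Hoxc8.

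Among 45 other transcription factor genes of the limb and trunk, 11 were called higher in MCA-970 and 6 higher in MCA-972 (37.8%, against 17.6% of all genes). With the run as a covariate the counts were 11 and 3. Tbx1, a T-box gene of the pharyngeal region and its muscles, was at 13.3 to 19.9 CPM in MCA-970 and 0.273 to 0.758 CPM in MCA-972 (log2 fold change 4.93 ± 0.28, edgeR adjusted p = 3.98e-14). Meox1, a homeobox gene of the somites, was at 54.8 to 219 CPM (median 163) in MCA-970 and at 3.003, 5.94, 7.92 and 4.51 CPM in MCA-972 (log2 fold change 4.87 ± 0.69, edgeR adjusted p = 1.59e-06), while its relative Meox2 lay the other way, at 1.07 to 5.53 CPM in MCA-970 and 11.3 to 26.8 CPM in MCA-972. Msx2, a homeobox gene of limb and skull, was higher in MCA-972, at 0.736 to 1.596 CPM in MCA-970 and 4.395 to 7.25 CPM in MCA-972. The calls of Meox2 and of Alx4, at 0.367 to 0.963 CPM in MCA-970 and 1.93 to 3.08 CPM in MCA-972, were lost with the run as a covariate. A further 3 regulators were at or near 0 in MCA-972. Pax3, a gene of muscle and neural crest precursors, was at 1.47 to 4.38 CPM in MCA-970 and had no count in MCA-972, at least 40.4-fold higher. Vax2, a homeobox gene of the ventral eye, was at 12.6 to 16.6 CPM (median 14.03) in MCA-970 and had no count in MCA-972, at least 180.2-fold higher. Scx, a gene of tendon precursors, was at 5.56 to 16.6 CPM in MCA-970 and 0.1303 to 0.367 CPM in MCA-972 (log2 fold change 5.16 ± 0.38, edgeR adjusted p = 1.10e-11).

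Imprinted genes, which are expressed from the copy of 1 parent, were called in both directions. Of 42 tested, 8 were higher in MCA-970 and 12 higher in MCA-972 (47.6%, against 17.6% of all genes). Their median log2 fold change was -0.26. In the Dlk1-Meg3 region of chromosome 12, the noncoding RNA Meg3 was at 257 to 398 CPM (median 344) in MCA-970 and at 0.601, 1.44, 1.67 and 0.919 CPM in MCA-972 (log2 fold change 8.16 ± 0.59, edgeR adjusted p = 1.12e-11). Rian, another noncoding RNA of the region, was at 412 to 631 CPM (median 494) in MCA-970 and at 0.901, 1.86, 2.16 and 0.891 CPM in MCA-972 (log2 fold change 8.42 ± 0.64, edgeR adjusted p = 3.01e-11). Mirg was at 12.9 to 21.03 CPM in MCA-970 and 0.0489 to 0.109 CPM in MCA-972. The 3 transcripts overlap 5, 19 and 15 other annotated genes, so their counts cannot be fully assigned. Dlk1, a Notch-like membrane protein gene at the other end of the region, had the opposite order, at 33.7 to 212 CPM (median 62.3) in MCA-970 and at 241, 241, 313 and 535 CPM in MCA-972 (log2 fold change -2.01 ± 0.37, edgeR adjusted p = 5.33e-05). The highest MCA-970 tumor for Dlk1 was a-1D, and it lay below all 4 MCA-972 tumors.

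In the imprinted region of chromosome 7, Igf2, a fetal growth factor gene, was at 34.7 to 110.3 CPM (median 60.2) in MCA-970 and at 434, 883, 589 and 766 CPM in MCA-972 (log2 fold change -3.38 ± 0.43, edgeR adjusted p = 2.46e-07). H19, its neighboring noncoding RNA, was at 67.05 to 794 CPM (median 461) in MCA-970 and at 2227, 4017, 3670.3 and 3329 CPM in MCA-972 (log2 fold change -2.94 ± 0.43, edgeR adjusted p = 2.21e-06). Both were higher in all 4 MCA-972 tumors, although Igf2 and H19 are expressed from opposite parental copies in normal tissue. Cdkn1c, a cell cycle inhibitor gene further along, was at 67.9 to 112 CPM in MCA-970 and 167 to 377 CPM in MCA-972, and Plagl1, a zinc finger gene on chromosome 10, was at 2.57 to 5.11 CPM in MCA-970 and 40.6 to 88.1 CPM in MCA-972 (log2 fold change -3.79 ± 0.35, edgeR adjusted p = 1.05e-09).

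MHC class I genes were higher in MCA-970. Of 23 genes of class I and peptide loading, 14 were called, each higher in MCA-970 (background 8.56%), with a median log2 fold change of 1.47, and in 17 the tumors did not overlap, as in 41.6% of all genes tested. Of these, 5 carry a shared element at or just before their start, which is shown because these genes moved together. The stretches are from RefSeq (GRCm38.p6, strand of the gene), and capitals mark ATTGG and, 18 or 19 bases on, CCAAT, its reverse complement.
H2-D1 (chr17:35263018-35263045, plus strand): ATTGGgtggcgagattccaggagCCAAT
H2-K1 (chr17:34000335-34000363, minus strand): ATTGGgtggcgcgatcaccaagaaCCAAT
H2-Q4 (chr17:35379538-35379566, plus strand): ATTGGgtgacgtgatcaccgggaaCCAAT
H2-Q6 (chr17:35424771-35424799, plus strand): ATTGGgtgaggtgatcaccgggaaCCAAT
H2-Q7 (chr17:35439115-35439143, plus strand): ATTGGgtgaggtgattacccggaaCCAAT
The H2-K1 stretch lies before 1 of the 2 RefSeq starts of the gene and crosses the other. This arrangement of letters was in the 250 bases before the start in 33 of 32851 RefSeq promoters (0.1%). It was looked for after these genes were known to move, and a match is a description and not a site. CCAAT alone, on either strand, was in 11 of the 12 called genes of the list with a promoter in the table, and in 33.8% of all promoters. The first is counted by gene and the second by promoter. The called Tap1 and Psmb9 share the same match, since their stretches overlap. Among uncalled genes of the list, Calr, Canx, Pdia3 and Tapbp had CCAAT, and Erap1, Psmb10, Psme1 and Psme2 did not.

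H2-K1, a classical class I heavy chain gene, was at 738 to 1449.7 CPM (median 1023) in MCA-970 and at 51.5, 117, 81.5 and 87.7 CPM in MCA-972 (log2 fold change 3.599 ± 0.24, edgeR adjusted p = 1.26e-12). H2-D1, the other classical heavy chain gene of this strain, was at 966 to 1964 CPM (median 1312) in MCA-970 and at 94.6, 180.3, 136 and 155 CPM in MCA-972 (log2 fold change 3.22 ± 0.19, edgeR adjusted p = 4.13e-14). B2m, which codes for the light chain that all class I molecules share, was at 1593 to 2518 CPM (median 2047) in MCA-970 and at 458, 650.2, 534 and 585 CPM in MCA-972 (log2 fold change 1.84 ± 0.15, edgeR adjusted p = 4.86e-11). For all 3 the 4 MCA-972 tumors lay below the 6 MCA-970 tumors. The nonclassical genes H2-Q4, H2-Q6 and H2-Q7 were at 208 to 511 CPM in MCA-970 and 13.4 to 37.1 CPM in MCA-972, at 118 to 384 CPM in MCA-970 and 1.99 to 7.17 CPM in MCA-972 and at 63.9 to 183 CPM in MCA-970 and 1.88 to 6.06 CPM in MCA-972. These class I genes have near-identical copies, so reads may have been split between them or lost. H2-T23, which codes for Qa-1, a ligand of the inhibitory receptor NKG2A, was at 15.5 to 35.7 CPM in MCA-970 and 3.03 to 5.16 CPM in MCA-972 (log2 fold change 2.29 ± 0.25, edgeR adjusted p = 2.03e-08).

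Peptide supply genes had smaller differences. Tap1, a subunit of the peptide transporter, was at 27.8 to 96.7 CPM (median 37.6) in MCA-970 and at 7.78, 14.01, 12.98 and 14.3 CPM in MCA-972 (log2 fold change 1.91 ± 0.36, edgeR adjusted p = 9.36e-05). The immunoproteasome genes Psmb8 and Psmb9 were at 19.8 to 60.3 CPM in MCA-970 and 7.12 to 13.6 CPM in MCA-972 and at 4.73 to 17.6 CPM in MCA-970 and 1.28 to 2.76 CPM in MCA-972. Nlrc5, the transactivator of class I genes, was at 20.6 to 35.5 CPM in MCA-970 and 7.62 to 13.8 CPM in MCA-972 (log2 fold change 1.25 ± 0.23, edgeR adjusted p = 6.54e-05), and it lost its call with the run as a covariate, where its log2 fold change was 0.74. W-2D was the highest tumor of MCA-970 for all of Tap1, Psmb8, Psmb9 and Nlrc5, and it was also the highest for H2-K1, H2-D1 and B2m. The number of genes of the list called higher in MCA-970 was also 14 with the run as a covariate.

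Of 36 interferon-stimulated genes tested, 4 were called higher in MCA-970 and 0 higher in MCA-972. That is 11.1%, against 17.6% of all genes called in either direction and 8.56% called higher in MCA-970. The median log2 fold change was 0.26. Without a-1, 2G or W-2D 1 was called. The 4 were Zbp1, a sensor of nucleic acids, at 12.6 to 30.98 CPM in MCA-970 and 3.25 to 6.16 CPM in MCA-972 (log2 fold change 2.05 ± 0.43, edgeR adjusted p = 3.09e-04), and Irf7, Usp18 and Irf1. The last 3 had log2 fold changes of 1.14, 1.07 and 1.03, and each lost its call in the fit with the letter a tumors alone. Irf7 lost it without any 1 of the 4 MCA-972 tumors or W-2D (log2 fold changes 0.9997 to 1.20). Usp18 lost it without a-1, a-1G, 2G or W-2D (0.98 to 1.07), and Irf1 without a-1, 2G or W-2D (0.89 to 0.93) and with the run as a covariate.

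**Figure D3:**
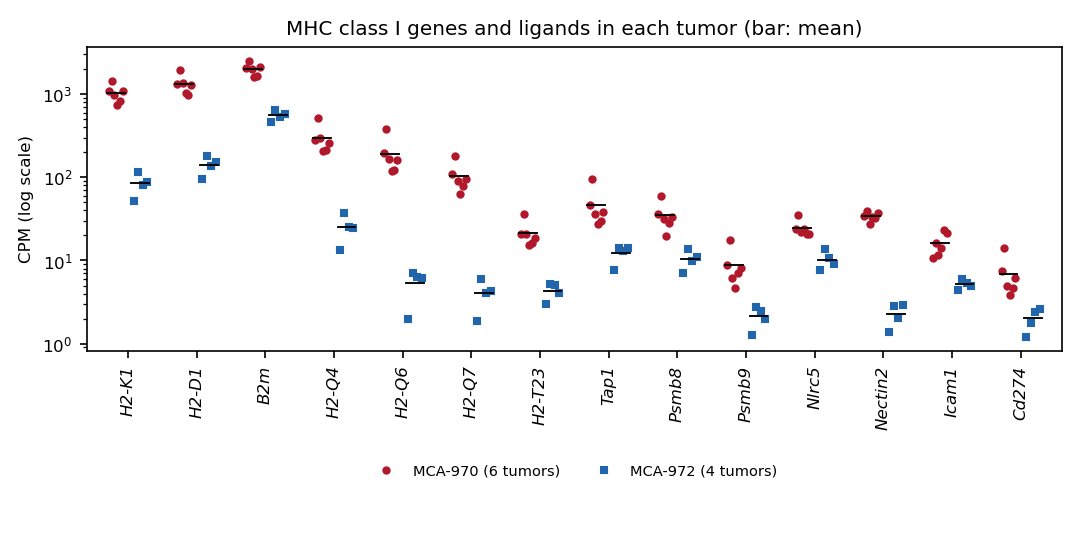
CPM of MHC class I genes and of genes for ligands of NK and T cell receptors in each tumor (vertical axis, log scale), with red circles for the 6 MCA-970 tumors, blue squares for the 4 MCA-972 tumors and a black bar for the mean. The circles lie above the squares for every gene shown, with the widest gaps at H2-Q6 and H2-Q7.

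Of 19 ligands of NK cell receptors tested, 8 were called, each higher in MCA-970 (42.1%, background 8.56%), and 5 with the run as a covariate. Nectin2, a ligand of the activating receptor DNAM-1, was at 27.7 to 39.8 CPM (median 33.9) in MCA-970 and at 1.39, 2.84, 2.01 and 2.92 CPM in MCA-972, with no overlap (log2 fold change 3.89 ± 0.18, edgeR adjusted p = 2.48e-16). Icam1, the ligand of the integrin LFA-1, was at 10.6 to 23.6 CPM in MCA-970 and 4.395 to 5.99 CPM in MCA-972 (log2 fold change 1.65 ± 0.32, edgeR adjusted p = 1.26e-04). Raet1e, a stress ligand of the activating receptor NKG2D, was at 1.86 to 5.31 CPM in MCA-970 and 0.938 to 1.34 CPM in MCA-972. Icam1 and Raet1e lost their calls with the run as a covariate. The 3 genes H2-T23, H2-Q7 and H2-M3 of this list are also in the class I list.

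Genes of checkpoint ligands and adenosine enzymes went in both directions, with 3 of 18 called higher in each line (33.3%, against 17.6% of all genes). Nectin2, given above as a ligand of DNAM-1, is also in this list and among the 3 higher in MCA-970. Cd274, which codes for PD-L1, was at 3.89 to 14.3 CPM (median 5.53) in MCA-970 and at 1.201, 1.76, 2.42 and 2.64 CPM in MCA-972, with no overlap (log2 fold change 1.77 ± 0.45, edgeR adjusted p = 0.00168). Ada, which removes adenosine, was at 3.46 to 6.36 CPM in MCA-970 and 13.6 to 17.4 CPM in MCA-972 (log2 fold change -1.58 ± 0.23, edgeR adjusted p = 2.02e-06). Lgals3, the galectin-3 gene, was at 95.1 to 292 CPM in MCA-970 and 50.3 to 89.2 CPM in MCA-972, and Tnfsf11, the RANK ligand gene, at 0.519 to 1.99 CPM in MCA-970 and 3.08 to 6.099 CPM in MCA-972. Both of these lost their calls with the run as a covariate, at which point Tnfsf11 had a log2 fold change of -0.29, and that of Lgals3 was also lost without W-2D (0.93).

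Of 20 genes of cell death receptors and granzyme inhibitors, 3 were called higher in MCA-970 and 2 in MCA-972 (25%, against 17.6% of all genes), and 1 in MCA-972 with the run as a covariate or without a-1G, 2G, W-2D or W-R. Tnfrsf10b, the receptor for TRAIL, a death ligand that ILC1 carry, was at 42.6 to 56.6 CPM (median 44.1) in MCA-970 and at 17.4, 14.8, 17.1 and 13.5 CPM in MCA-972, with no overlap (log2 fold change 1.56 ± 0.12, edgeR adjusted p = 3.01e-11). Fas, the other death receptor among them, was at 5.202 to 7.47 CPM in MCA-970 and 2.49 to 2.87 CPM in MCA-972. Birc3, an inhibitor of apoptosis gene, was at 59.2 to 75.2 CPM in MCA-970 and 27.97 to 34.4 CPM in MCA-972, and Bcl2, which protects mitochondria, at 7.47 to 13.01 CPM in MCA-970 and 18.9 to 28.4 CPM in MCA-972. The calls of Fas, Birc3 and Bcl2 were lost with the run as a covariate, and that of Bcl2 also without 2G, W-2D or W-R (log2 fold changes -0.86 to -0.99).

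Cytokines that act on leukocytes had 7 of 27 tested genes called, each higher in MCA-970. That is 25.9%, against 17.6% of all genes called in either direction and 8.56% called higher in MCA-970. With the run as a covariate 1 was higher in MCA-970 and 2 in MCA-972. Tgfb1, which codes for the suppressive cytokine TGF-beta 1, was at 70.9 to 83.2 CPM (median 75.02) in MCA-970 and at 23.1, 23.2, 22.3 and 28.7 CPM in MCA-972, with no overlap (log2 fold change 1.66 ± 0.15, edgeR adjusted p = 4.75e-10). Il11 and Lif, both of the interleukin 6 family, were at 14.2 to 50.7 CPM in MCA-970 and 5.79 to 10.997 CPM in MCA-972 and at 77.1 to 164 CPM in MCA-970 and 20.7 to 57.4 CPM in MCA-972. The calls of Il11 and Lif were lost with the run as a covariate, and that of Lif also without a-1 or 2G (1.599 and 1.58). Without a-1D or a-2D of MCA-970, 1 cytokine gene was called higher in MCA-972. Of 27 chemokines 6 were called higher in MCA-970 and 4 higher in MCA-972 (37%, against 17.6% of all genes). Without a-1, 3 were called higher in MCA-970.

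Prostaglandin E2 genes were called at both ends of the pathway. Of 13 tested, 4 were higher in MCA-970 and 3 higher in MCA-972 (53.8%, against 17.6% of all genes). Ptgs1, the constitutive cyclooxygenase gene, was at 91.6 to 175 CPM (median 118) in MCA-970 and at 32.3, 27.2, 19.1 and 33.7 CPM in MCA-972 (log2 fold change 2.1996 ± 0.24, edgeR adjusted p = 2.54e-08). Slco2a1, the prostaglandin transporter gene, was at 142 to 304 CPM in MCA-970 and 35.2 to 49.4 CPM in MCA-972 (log2 fold change 2.16 ± 0.37, edgeR adjusted p = 2.21e-05). Pla2g4a, which releases the precursor arachidonic acid, had the opposite order, at 20.4 to 26.6 CPM in MCA-970 and 49.8 to 60.96 CPM in MCA-972 (log2 fold change -1.16 ± 0.13, edgeR adjusted p = 4.79e-08). None of these 3 overlapped between the lines, as in 41.6% of all genes tested.

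Of 11 genes from the study's comparison of sensitive with non-sensitive lines, 3 were called between these 2 sensitive lines (27.3%, against 17.6% of all genes). The study's results text names these genes except the protocadherins, which it gives as a family and its supplementary list gives by gene. The 11 are a part of the genes it lists. Pcdhga5, a clustered protocadherin gene, was at 0.699 to 1.45 CPM in MCA-970 and 7.31 to 10.5 CPM in MCA-972 (log2 fold change -2.96 ± 0.37, edgeR adjusted p = 1.58e-07), and Pcdhgb7 from the same cluster was at 3.13 to 5.35 CPM in MCA-970 and 1.26 to 2.67 CPM in MCA-972 (log2 fold change 1.14 ± 0.17, edgeR adjusted p = 3.50e-06), a call that was lost without a-1 (0.98). The genes of that cluster overlap 28 or more others, so their counts cannot be fully assigned. Tnfsf11 was the other. Without a-R 2 genes of the 11 were called higher in MCA-970. Plet1, Ifitm1, Vsir, Rasa4, Pcdhgb2, Ntm and Musk were not called, and their tumors overlapped. Ntm was, with the run as a covariate, called higher in MCA-972 (log2 fold change -2.54, edgeR adjusted p = 0.0469). Pcdh17 was at 26.9 to 34.6 CPM in MCA-970 and 12.02 to 23.2 CPM in MCA-972 and was not called (log2 fold change 0.95 ± 0.41, edgeR adjusted p = 0.0563).

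**Figure D4:**
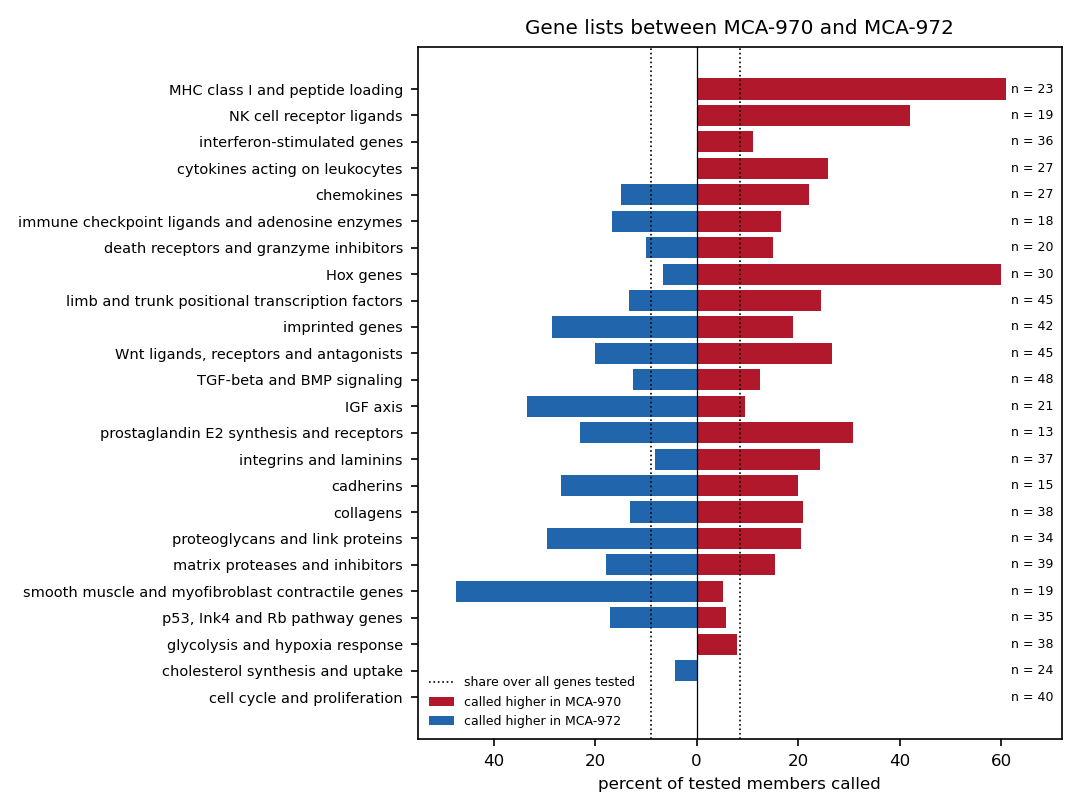
Percent of the tested members of 24 gene lists that were called higher in MCA-970 (red, to the right) or higher in MCA-972 (blue, to the left), with the number tested at the right and dotted lines at the shares over all genes tested, 8.56% and 9.01%. MHC class I genes and Hox genes reach furthest to the right, and contractile genes furthest to the left.

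The matrix and its attachments differed in composition. Of 38 collagen genes tested, 8 were called higher in MCA-970 and 5 higher in MCA-972 (34.2%, against 17.6% of all genes). With the run as a covariate 7 and 0 were called. Col4a2, a basement membrane chain, was at 917 to 1491 CPM (median 1149.6) in MCA-970 and at 181, 164, 176 and 351 CPM in MCA-972 (log2 fold change 2.43 ± 0.52, edgeR adjusted p = 3.09e-04). Col25a1, a membrane collagen, was at 17.8 to 37.5 CPM in MCA-970 and 2.51 to 4.57 CPM in MCA-972 (log2 fold change 2.82 ± 0.29, edgeR adjusted p = 6.90e-09). Basement membrane collagens are also made by vessel cells, whose markers are given below, and the part of these cells in the result was not tested. Col8a2 and Col9a3, at 0.147 to 7.92 CPM in MCA-970 and 12.9 to 27.2 CPM in MCA-972 and at 0.116 to 0.404 CPM in MCA-970 and 1.22 to 2.98 CPM in MCA-972, lost their calls with the run as a covariate.

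Of 34 proteoglycan genes 7 were called higher in MCA-970 and 10 higher in MCA-972 (50%, against 17.6% of all genes). With the run as a covariate 2 were higher in MCA-972. Acan, the cartilage proteoglycan aggrecan, was at 0.0736 to 8.97 CPM (median 1.702) in MCA-970 and at 148, 86.2, 160.4 and 109 CPM in MCA-972 (log2 fold change -5.603 ± 0.68, edgeR adjusted p = 2.56e-07). Its call was lost with the run as a covariate, at a log2 fold change of -2.94. Gpc3, a heparan sulfate proteoglycan of the cell surface, was at 0.696 to 1.76 CPM (median 1.105) in MCA-970 and at 15.8, 13.2, 10.9 and 31.2 CPM in MCA-972 (log2 fold change -3.93 ± 0.48, edgeR adjusted p = 1.22e-07). Has1, a hyaluronan synthase gene, was at 7.72 to 22.1 CPM in MCA-970 and 1.99 to 5.23 CPM in MCA-972 (log2 fold change 2.22 ± 0.40, edgeR adjusted p = 3.68e-05). Fmod, the fibromodulin gene, spread widely within MCA-970, from 0.294 to 68.1 CPM with a median of 8.17, and overlapped MCA-972 at 0.655, 1.08, 2.79 and 1.61 CPM.

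Among 39 genes of matrix proteases and their inhibitors, 6 were called higher in MCA-970 and 7 in MCA-972 (33.3%, against 17.6% of all genes). With the run as a covariate 4 were higher in MCA-972. Mmp9, a gelatinase gene, was at 161 to 339 CPM (median 185) in MCA-970 and at 27.9, 38.002, 29.4 and 34.4 CPM in MCA-972 (log2 fold change 2.71 ± 0.30, edgeR adjusted p = 2.95e-08). Serpine2, an inhibitor of thrombin and urokinase, was at 269.7 to 345 CPM in MCA-970 and 37.3 to 68.7 CPM in MCA-972 (log2 fold change 2.65 ± 0.49, edgeR adjusted p = 6.20e-05). Adamts5, an aggrecan-cleaving protease gene, was at 7.36 to 9.29 CPM in MCA-970 and 43.2 to 87.7 CPM in MCA-972 (log2 fold change -2.84 ± 0.26, edgeR adjusted p = 9.58e-10). Mmp10 was at 158 to 533 CPM in MCA-970 and 50.3 to 112 CPM in MCA-972, and its call was lost with the run as a covariate.

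Of 37 integrin and laminin genes 9 were called higher in MCA-970 and 3 in MCA-972 (32.4%, against 17.6% of all genes). Itga6, a laminin receptor chain, was at 85.4 to 136 CPM (median 114) in MCA-970 and at 11.1, 11.1, 10.9 and 14.7 CPM in MCA-972, with no overlap (log2 fold change 3.19 ± 0.17, edgeR adjusted p = 8.38e-15). The collagen receptor chains Itga1, Itga2 and Itga10 were at 60.97 to 86.7 CPM in MCA-970 and 17.2 to 25.2 CPM in MCA-972, at 3.05 to 5.396 CPM in MCA-970 and 0.792 to 1.56 CPM in MCA-972 and at 9.82 to 39.1 CPM in MCA-970 and 2.76 to 4.94 CPM in MCA-972. Itga7, a laminin receptor chain of muscle, was higher in MCA-972, at 11.4 to 15.6 CPM in MCA-970 and 29.6 to 45.2 CPM in MCA-972. Itga11, a collagen receptor chain of fibroblasts, was at 7.43 to 75.8 CPM in MCA-970 and 86.03 to 171 CPM in MCA-972 and lost its call with the run as a covariate.

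Of 15 cadherin genes 3 were called higher in MCA-970 and 4 in MCA-972 (46.7%, against 17.6% of all genes). Cdh13, a cadherin with a lipid anchor, was at 43.04 to 121 CPM in MCA-970 and 4.86 to 10.8 CPM in MCA-972 (log2 fold change 3.27 ± 0.32, edgeR adjusted p = 2.45e-09). Cdh10 was at 0.368 to 5.204 CPM in MCA-970 and 17.5 to 33.6 CPM in MCA-972 (log2 fold change -3.39 ± 0.60, edgeR adjusted p = 3.23e-05), and Cdh19, at 2.87 to 5.77 CPM in MCA-970 and 28.95 to 39.3 CPM in MCA-972, lost its call with the run as a covariate.

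Contractile genes of smooth muscle and myofibroblasts were mostly higher in MCA-972. Of 19 tested, 9 were called higher in MCA-972 (background 9.01%) and 1 higher in MCA-970, with a median log2 fold change of -0.85, and with the run as a covariate 5 were higher in MCA-972. Actg2, a smooth muscle actin gene, was at 0.367 to 2.57 CPM (median 1.09) in MCA-970 and at 20.6, 38.2, 48.3 and 33.96 CPM in MCA-972 (log2 fold change -4.9001 ± 0.44, edgeR adjusted p = 6.45e-10). Cnn1, which codes for calponin, was at 7.76 to 39.4 CPM (median 32.96) in MCA-970 and at 153, 92.8, 173 and 113 CPM in MCA-972 (log2 fold change -2.25 ± 0.31, edgeR adjusted p = 9.63e-07). Myh11, smooth muscle myosin, was at 0.153 to 1.17 CPM in MCA-970 and 4.23 to 11.7 CPM in MCA-972 (log2 fold change -3.401 ± 0.54, edgeR adjusted p = 8.51e-06). Acta2, alpha smooth muscle actin, was at 101 to 299 CPM in MCA-970 and 422 to 782 CPM in MCA-972 and lost its call with the run as a covariate. Without W-R 2 members were higher in MCA-970. Itga8 was the member higher in MCA-970, at 29.96 to 52.6 CPM in MCA-970 and 10.8 to 16.6 CPM in MCA-972.

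Signaling genes of development were called in both directions. Of 45 Wnt pathway genes, 12 were higher in MCA-970 and 9 in MCA-972 (46.7%, against 17.6% of all genes). With the run as a covariate 5 were higher in MCA-972. The ligand Wnt10a was at 3.35 to 6.88 CPM (median 3.998) in MCA-970 and at 0.109, 0.0244, 0.0521 and 0.0557 CPM in MCA-972 (log2 fold change 6.199 ± 0.47, edgeR adjusted p = 1.57e-11). The secreted antagonist Frzb was at 6.01 to 7.14 CPM in MCA-970 and 0.682 to 1.25 CPM in MCA-972 (log2 fold change 2.68 ± 0.32, edgeR adjusted p = 6.73e-08), and Rspo2, which amplifies Wnt signals, was higher in MCA-972, at 0.798 to 1.99 CPM in MCA-970 and 5.04 to 6.91 CPM in MCA-972 (log2 fold change -2.36 ± 0.26, edgeR adjusted p = 2.32e-08). Of 48 genes of TGF-beta and bone morphogenetic protein (BMP) signaling, 6 were called in each direction (25%, against 17.6% of all genes). Bmp2 was at 119 to 231 CPM in MCA-970 and 39.3 to 59.3 CPM in MCA-972 (log2 fold change 1.88 ± 0.42, edgeR adjusted p = 4.81e-04), and Chrdl1, a BMP antagonist gene on the X chromosome, was at 0.478 to 1.79 CPM (median 1.14) in MCA-970 and at 32.2, 21.4, 29.6 and 28.5 CPM in MCA-972 (log2 fold change -4.54 ± 0.44, edgeR adjusted p = 2.79e-09). Of 21 genes of the insulin-like growth factor axis, 2 were higher in MCA-970 and 7 in MCA-972 (42.9%, against 17.6% of all genes). The counts were 0 and 3 with the run as a covariate, and 1 in MCA-970 without a-1G or 2G.

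Of 35 genes of the p53, Ink4 and Rb pathways, 2 were called higher in MCA-970 and 6 in MCA-972, with 1 higher in MCA-970 without 2G, W-2D or a-2G. Together these are 22.9% of the list, against 17.6% of all genes. Trp53 itself was at 21.05 to 29.6 CPM (median 23.9) in MCA-970 and at 103, 93.8, 88.99 and 88.7 CPM in MCA-972 (log2 fold change -1.903 ± 0.28, edgeR adjusted p = 3.19e-06). Cdkn1a, the p21 gene and a target of p53, had the opposite order, at 50.8 to 83.03 CPM (median 62.3) in MCA-970 and at 32.5, 17.998, 11.9 and 30.9 CPM in MCA-972 (log2 fold change 1.496 ± 0.30, edgeR adjusted p = 1.44e-04). Eda2r, another p53 target, followed Trp53, at 4.498 to 8.28 CPM in MCA-970 and 21.1 to 27.6 CPM in MCA-972 (log2 fold change -1.96 ± 0.23, edgeR adjusted p = 6.90e-08). None of these 3 overlapped between the lines, as in 41.6% of all genes tested. Cdk6, a kinase gene that drives entry into the cell cycle, was at 49.7 to 58.1 CPM in MCA-970 and 128 to 144 CPM in MCA-972 and lost its call with the run as a covariate. Cdkn2a, the Ink4a and Arf gene, was at 573 to 678 CPM in MCA-970 and 415 to 529 CPM in MCA-972 and was not called (log2 fold change 0.46 ± 0.27, edgeR adjusted p = 0.17). Whether these genes carry mutations was not analysed here.

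None of 40 cell cycle genes reached the fold threshold in edgeR, although 26 had an adjusted p under 0.05 with the higher level in MCA-972 and 1 with the higher level in MCA-970. At an unadjusted p under 0.05 these counts were 27 and 1. DESeq2 and limma-voom each called 1 gene, and the fit with the run as a covariate called 7, all higher in MCA-972. Without a-1G, a-R or a-2G 1 was called higher in MCA-972, and without a-2D 2 were. The median log2 fold change was -0.52, and in 23 genes the tumors did not overlap, where 41.6% of all genes did not. Mki67, the proliferation marker Ki-67, was at 97.02 to 143 CPM (median 121) in MCA-970 and at 240.1, 237, 261 and 229 CPM in MCA-972 (log2 fold change -0.996 ± 0.12), and it was among the 7. Of 38 genes of glycolysis and hypoxia 3 were called, each higher in MCA-970 (7.89%, background 8.56%). The lactate transporter gene Slc16a1 was at 174 to 239 CPM in MCA-970 and 47.3 to 68.6 CPM in MCA-972. The phosphofructokinase gene Pfkp was at 88.1 to 121 CPM in MCA-970 and 26.4 to 36.8 CPM in MCA-972. The glucose transporter gene Slc2a3 was at 28.6 to 50.6 CPM in MCA-970 and 8.89 to 16.7 CPM in MCA-972. Without a-1 8 genes of that list were called and without a-1G 5, each higher in MCA-970.

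Stress genes that tissue dissociation induces were examined because Jun is among them. Of 16, 2 were called higher in MCA-972 and 1 higher in MCA-970 (18.8%, near the 17.6% of all genes). The latter was Nr4a1, an immediate early nuclear receptor gene, at 1269 to 2236 CPM in MCA-970 and 199 to 551 CPM in MCA-972 (log2 fold change 2.42 ± 0.32, edgeR adjusted p = 5.36e-07). The median log2 fold change of the list was 0.26, and with the run as a covariate 5 were higher in MCA-970 and 1 higher in MCA-972. Without a-R 5 were higher in MCA-970, without W-1D, a-2D or a-2G 2 were, and without W-2D or W-R 1 was higher in MCA-972.

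Some genes with the largest changes belonged to none of the lists given above. In MCA-970, Aplp1, an amyloid precursor-like membrane protein gene, was at 16.9 to 29.999 CPM (median 24.7) against 0.136, 0.0734, 0.104 and 0.278 CPM in MCA-972 (log2 fold change 7.33 ± 0.71, edgeR adjusted p = 2.17e-09). In MCA-972, Ndp, the norrin gene of the X chromosome and a ligand of a Wnt receptor, was at 29.2, 28.1, 29.4 and 28.95 CPM against 0 to 0.194 CPM (median 0.117) in MCA-970 (log2 fold change -8.02 ± 0.31, edgeR adjusted p = 4.99e-18). Angptl7, an angiopoietin-like secreted protein gene, was at 179, 117, 185 and 217 CPM against 0.5499 to 1.18 CPM (median 0.806) (log2 fold change -7.72 ± 0.43, edgeR adjusted p = 3.56e-14). None of the 3 overlapped between the lines, as the rule for naming them required. Rbm44, St8sia2, Rbm20, Ppl, Igsf5, Pcdhga7, Ptprd, Heph and Gsta4 were also higher in MCA-972, with log2 fold changes from -7.54 for Rbm44 to -4.71 for Gsta4. Gsta4 is in a further list, of oxidative stress target genes. Of its 30 tested members 3 were called higher in each line (20%, against 17.6% of all genes).

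Markers of other cell types were examined because bulk RNA holds whatever the beads left. In bulk samples, fewer cells of a type and less RNA per cell cannot be told apart. Of 16 leukocyte genes 2 were called higher in MCA-970 and 0 higher in MCA-972. That is 12.5%, against 17.6% of all genes called in either direction and 8.56% called higher in MCA-970. The summed level of the 16 was 304 to 443 CPM in MCA-970 and 339 to 387 CPM in MCA-972. Ptprc, the CD45 gene, was at 0.508 to 23.04 CPM (median 1.58) in MCA-970 and at 1.75, 5.28, 8.42 and 2.004 CPM in MCA-972. W-1D and W-R stood apart with 23.04 and 14.8 CPM, while the other 4 MCA-970 tumors lay at or below 1.77 CPM, and the lines overlapped. Without W-1D or W-R alone, or without a-1G or a-R, 1 was called, and without a-1 or with the run as a covariate 0 were. Without W-1D and W-R together, 0 leukocyte genes were called higher in MCA-970 and 1 higher in MCA-972.

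Of 15 NK cell and ILC1 genes 11 were called higher in MCA-970 (background 8.56%). In 5 of the 15 the tumors did not overlap, where 41.6% of all genes tested did not. Klrb1c, the gene of NK1.1 itself, was at 0.1495 to 2.66 CPM (median 0.344) in MCA-970 and at 0, 0.0244, 0.0782 and 0 CPM in MCA-972 (log2 fold change 5.09 ± 1.18, edgeR adjusted p = 7.68e-04). Prf1, the perforin gene, was at 0.0299 to 4.61 CPM (median 0.416) in MCA-970 and at 0, 0.0489, 0.1303 and 0.111 CPM in MCA-972 (log2 fold change 4.33 ± 1.53, edgeR adjusted p = 0.0207). Ncr1, which codes for NKp46, was at 1.94, 0.221 and 2.57 CPM in W-1D, W-2D and W-R and had no count in the other 3 MCA-970 tumors or in any MCA-972 tumor. The mean of MCA-970 was therefore at least 9.95-fold above the floor of MCA-972. Klrk1, the NKG2D gene, was at 0 to 3.73 CPM in MCA-970 and 0.0273 to 0.104 CPM in MCA-972. W-1D and W-R were the highest tumors for Klrb1c, Prf1 and Ncr1. Without these tumors 4 genes of the list were called higher in MCA-970 and 1 higher in MCA-972, with the letter a tumors alone 4 and 1, with the run as a covariate 2 and 0, and without W-R alone 7 and 0. The list's median log2 fold change was 3.38, and 3.31 with Ncr1 at its bound. The calls of Klrb1c, Prf1, Klrk1 and Ncr1 were lost with the run as a covariate (edgeR adjusted p of 0.163 to 0.495), that of Prf1 also without a-1, a-1G or W-R (log2 fold changes 3.59 to 4.19), and that of Klrk1 without a-1 or W-R (3.83 and 3.38). Among the 11 are Itga1 and Itga2, which fibroblasts also express, at the levels given above.

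Of 9 T cell genes that passed the filter, 4 were called higher in MCA-970 and 1 higher in MCA-972 (55.6%, against 17.6% of all genes). Lck, a T cell kinase gene, was at 1.47 to 3.57 CPM (median 1.97) in MCA-970 and at 0.0546, 0.122, 0.313 and 0.251 CPM in MCA-972 (log2 fold change 3.57 ± 0.42, edgeR adjusted p = 5.45e-08). Trbc2, a T cell receptor constant gene, had the opposite order, at 0.184 to 0.658 CPM in MCA-970 and 3.84 to 6.52 CPM in MCA-972 (log2 fold change -3.44 ± 0.29, edgeR adjusted p = 1.36e-10). The receptor genes Cd3e and Cd3d lay at or below 0.174 CPM in all 10 tumors. In the fit with the run as a covariate 1 gene of the list was called higher in each line, and without W-1D and W-R 1 was called higher in MCA-970 and 2 higher in MCA-972. Leaving out a-1, a-R, W-1D or W-R singly gave 1 or 2 higher in MCA-970 and up to 2 higher in MCA-972, as did leaving out a-1G for the latter. Of 16 myeloid genes 1 was called higher in MCA-970 (6.25%, background 8.56%). The count was 0 with the run as a covariate, 2 without a-1, a-1D or a-2D and 3 without W-2D. Without W-1D 1 was called higher in MCA-972.

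Genes of vessel cells were mostly called higher in MCA-970. Of 16 endothelial genes 11 were called higher in MCA-970 (background 8.56%). In only 3 of the 16 did the tumors not overlap, where 41.6% of all genes tested did not. The summed level of the 16 was 424 to 889.6 CPM in MCA-970 and 141 to 271 CPM in MCA-972. Cdh5, VE-cadherin, was at 211 to 252 CPM (median 242) in MCA-970 and at 15.9, 22.8, 27.99 and 42.4 CPM in MCA-972 (log2 fold change 3.11 ± 0.63, edgeR adjusted p = 1.75e-04). Plvap, a gene of fenestrated vessels, was at 16.9 to 79.3 CPM (median 68.2) in MCA-970 and at 5.46, 5.43, 7.402 and 14.1 CPM in MCA-972 (log2 fold change 2.75 ± 0.70, edgeR adjusted p = 0.00188). Pecam1, the CD31 gene, was at 20.99 to 119 CPM in MCA-970 and 10.7 to 32.8 CPM in MCA-972 (log2 fold change 2.16 ± 0.66, edgeR adjusted p = 0.00807). The call of Pecam1 was lost with the run as a covariate, at a log2 fold change of 2.05 (edgeR adjusted p = 0.147). Plvap and Pecam1 were lowest in W-1D and W-R among the MCA-970 tumors, while Cdh5 varied little among the 6. All 9 pericyte genes were called higher in MCA-970, and in 5 of them the tumors did not overlap. Rgs5, a pericyte gene, was at 20.1 to 69.99 CPM (median 52.9) in MCA-970 and at 1.28, 1.27, 1.43 and 3.48 CPM in MCA-972, with no overlap (log2 fold change 4.66 ± 0.97, edgeR adjusted p = 2.49e-04). With the run as a covariate 3 endothelial and 4 pericyte genes were called, and without W-1D and W-R 13 endothelial genes.

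**Figure D5:**
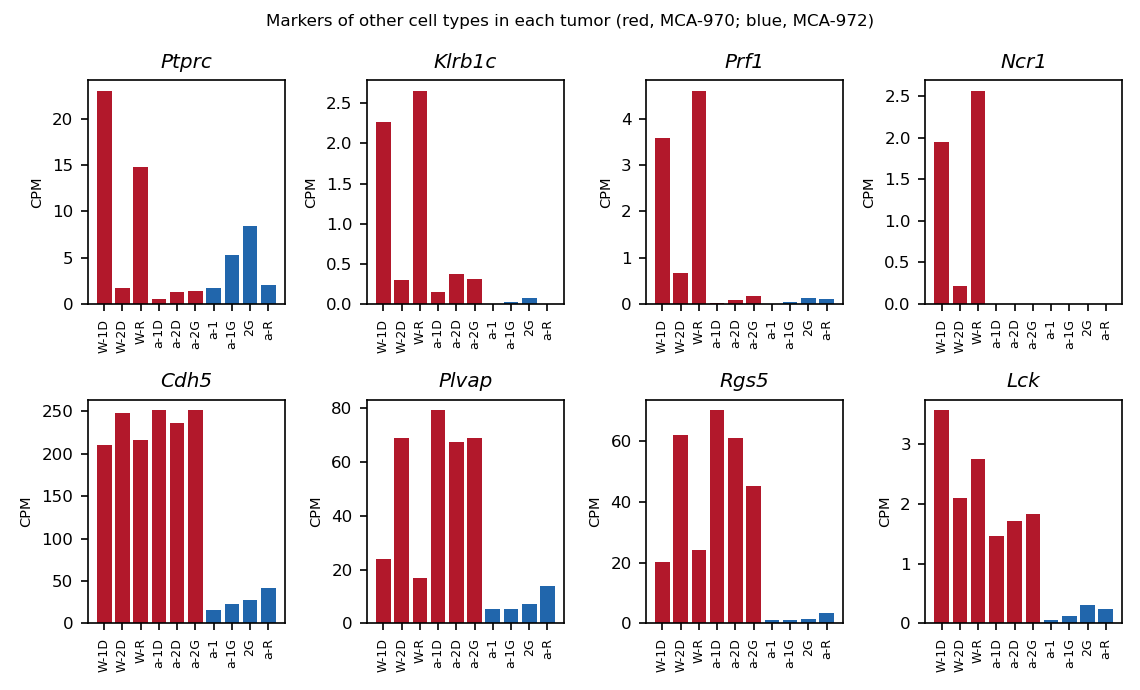
CPM (vertical axis, from 0) of 8 marker genes in each of the 6 MCA-970 tumors (red) and the 4 MCA-972 tumors (blue), 1 bar per tumor. Ptprc, Klrb1c, Prf1 and Ncr1 are highest in W-1D and W-R, Plvap and Rgs5 are lowest in these among the MCA-970 tumors, and Cdh5 is at 211 CPM or above in all 6.

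Keratinocyte, adipocyte and Schwann cell genes gave 7, 6 and 8 genes past the filter, of which 1, 2 and 0 were called higher in MCA-970 and 2, 1 and 3 higher in MCA-972. The called shares were 42.9%, 50% and 37.5%, against 17.6% of all genes. Without a-R or with the run as a covariate 0 adipocyte genes were higher in MCA-972, with that covariate 1 keratinocyte gene was, and 1 Schwann cell gene was higher in MCA-970 without a-1G, 2G, W-1D, W-2D, W-R, a-1D or a-2G. Their defining genes were near 0. Krt5, Krt14, Adipoq and Sox10 lay at or below 0.194 CPM in all 10 tumors. The part of leukocytes, vessel cells and pericytes in the other results was not tested. Without W-1D and W-R, 14 of the 23 class I and peptide loading genes and 13 of the 16 endothelial genes were called higher in MCA-970.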

How the data were processed

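The authors deposited raw read counts for 48440 genes in 30 tumors. RNA extraction, library preparation and sequencing were done by a company. Reads were aligned with STAR 2.5.3a to GRCm38, passed through Picard and counted with featureCounts (1.5.2 in the submitters' processing notes). The column headers name alignments deduplicated by unique molecular identifiers, and the strand setting is not given in the sources used here. Genes were named through GENCODE mouse release 21, which matched 48058 genes.

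Tumors were grouped by the line in their title. Counts were analysed with edgeR 4.0.16 (R 4.3.3): filterByExpr, TMM scaling and a robust quasi-likelihood fit of line over all 30 tumors, which share 1 estimate of the spread. The contrast was MCA-970 minus MCA-972. The study's methods used DESeq2, which was run as an alternative (1.42.0), as was limma-voom (limma 3.58.1). On counts simulated for this contrast over 16246 genes, the fit recovered 100 of 100 genes changed by 1.5 and 100 of 100 changed by 3 on the log2 scale, and called 1 unchanged gene. The changed genes had a mean of at least 1 CPM. All genes had the same spread, and no run differed. Recovery at lower levels, with wider spread or with run differences was therefore not measured. No pair of tumors within either line was a duplicate, since the chi-square per degree of freedom between them was 24.6 or more.

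The members and the 49 gene lists were chosen with earlier results of these data known. Genes were named by rule. In each direction the 15 called genes of largest change were taken. These had at least 10 CPM in the higher line, no overlap and no predicted-gene or pseudogene name. Of each list, up to 4 called members in each direction with at least 1 CPM in the higher line were taken. The 11 genes of the study were those its results text names, with its protocadherins taken from the supplementary list. They are a part of the genes it lists. Any gene of the sex-linked, fibroblast and other cell type lists could be named, as could uncalled members that define a pathway. Genes of the chromosome 4 segment and its neighbors, some further called list members and the promoter stretches were chosen after their values were seen, as was the alternative without W-1D and W-R. Other alternatives changed the tool, scaling, filter, thresholds, tumors or covariates. Floors cover counting error only. The values of a few genes are not reported here.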

Additional observations from a re-analysis of the deposited data

Results flagged for a closer look

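Tumors that stood apart within their line were looked for in 306 sets of values, where the highest or lowest tumor was tested with Dixon's ratio. A set was a gene's CPM, the mitochondrial share or the total count, within 1 line. The cutoffs are passed in about 1 in 20 independent sets of normally distributed values. That distribution was not checked for CPM, and genes that move together do not give independent sets. The 30 sets found are therefore given as a description, without a chance rate. All values below are CPM unless named otherwise, and no cause was tested.

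In MCA-970, W-2D was the highest tumor for genes of antigen presentation and interferon response. It had H2-Q6 at 384 (next highest 194), H2-Q4 at 511 (294), H2-T23 at 35.7 (20.98), Tap1 at 96.7 (46.4), Psmb9 at 17.6 (8.94), Nlrc5 at 35.5 (24.1), Irf7 at 30.1 (20.01), Cd274 at 14.3 (7.37) and Tnfrsf10b at 56.6 (47.4). The tumor a-1D was the highest for Dlk1 at 212 (next highest 80.6), Fmod at 68.1 (18.5), Itga10 at 39.1 (18.2), Itga11 at 75.8 (29.1), Nfia at 21.5 (14.9) and Igsf5 at 2.78 (1.24). Acan was at 8.97 in a-2D (next highest 2.73), Pfkp at 121 in a-2G (99.2), and W-1D was the highest for Thy1 at 938 (742) and Ifitm1 at 1.71 (0.927).

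In MCA-972, a-R was the highest tumor for Jun at 13704 (next highest 8322), Col4a2 at 351 (181), Itga6 at 14.7 (11.1), Tgfb1 at 28.7 (23.2), Rgs5 at 3.48 (1.43) and Hoxc11 at 0.0278 (0). Hoxc8 was highest in 2G at 55.2 (50.3) and Pcdhga5 in a-1 at 10.5 (7.79). Cdh19 was lowest in a-1G at 29.0 (next lowest 38.1), and Hoxa10 had no count in a-1, at 0 CPM (next lowest 0.0489). These Hoxc11 and Hoxa10 values lie below the floor of 3 counts per library (0.0792 CPM). The total count was highest in a-1G, at 40088940.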

How the results depend on the processing

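The count of 2962 called genes was 2992 with DESeq2, 2915 with limma-voom, 2964 with DESeq2 size factors, 3910 without a filter, 2664 with the 10 tumors alone and 2828 to 2982 when 1 tumor was left out (1332 to 1476 higher in MCA-970, 1469 to 1565 higher in MCA-972). It moved further with a mean of at least 1 CPM, to 1712 (928 and 784 in the order MCA-970, MCA-972), without a fold threshold, to 8103 (3991 and 4112), and with a log2 fold change of at least 2, to 1041 (510 and 531). With the library run as a covariate 974 genes were higher in MCA-972 instead of 1519. The 173 genes called between runs within MCA-969 became 144 to 1328 when 1 tumor was left out, the most without W-1D. Chromosome medians moved with the mean of at least 1 CPM to 0.026 on chromosome 1, 0.44 on chromosome 3 and -0.32 on the X, and with DESeq2 size factors to 0.059 on chromosome 2.

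The title codes shared by the lines did not pair the tumors, with correlations of deviations of -0.25 for W-R with a-R and 0.08 for a-2G with 2G. With the code as a replicate block 2677 genes were called (1311 and 1366), and the log2 fold changes of Plet1, Pcdhgb2 and Musk turned to 0.00238, 0.10 and 0.17.

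Of 137 called genes named above, 109 kept their call with the run as a covariate and 28 lost it, and 104 held it in all 24 settings but the higher fold threshold. Ptprc, uncalled, reversed with limma-voom (-0.31), the letter a tumors (-1.498), without W-1D (-0.14, in a range to 1.25 when 1 tumor was left out) and without W-1D and W-R (-1.80), and with the letter a tumors Klrk1 went to -1.56, Ncr1 to 0 and Tek to 0.00301. Uncalled genes that reversed with the run as a covariate were Gm12696 (-0.060), Plet1 (0.081) and Rasa4 (0.048). Plet1 was at 0.022 and Vsir at -0.041 without W-1D and W-R, and Vsir at -0.27 with the letter a tumors and -0.090 with the letter as a covariate. Ifitm1 was at 0.016 with limma-voom, 0.22 with the letter a tumors, 0.34 with the letter as a covariate and -0.41 to 0.44 when 1 tumor was left out, the highest without 2G. Pcdhgb2 was at -0.22 to 0.10, the highest without a-1. The cause was not tested. Depth limits genes near the floor, and line and run stay confounded within the pair.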
